A study of Mus musculus with 6 samples.

Results

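The vascular endothelial growth factor (VEGF) family examined here comprised 9 genes, taken by symbol from a table of 26106 genes: the receptors Flt1, Kdr and Flt4, the co-receptors Nrp1 and Nrp2, and the ligands Vegfa, Vegfb, Vegfc and Pgf. The receptors are the named target class of ZM-306416, the kinase inhibitor given to the treated cells. All 9 genes were present in the table and all 9 passed the filter on low counts. They were read in 6 mRNA libraries of bone marrow-derived macrophages from wild-type male C57BL/6 mice, 6 weeks old. Both groups were cultured for 2 days in alpha-MEM with 10% fetal bovine serum, M-CSF at 30 ng/mL and RANKL at 100 ng/mL, the cytokines that drive these precursors towards osteoclasts. Ctrl (n = 3) had no inhibitor and no vehicle was named for it, and ZM (n = 3) had 10 uM of the inhibitor. Where 3 values are given for a group, they stand in the order of its replicates 1 to 3. The design gives 1 dose, 1 time and no untreated precursors.

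VEGF ligands are secreted dimers that bring receptor tyrosine kinases together at the cell surface. Vegfa binds Flt1 and Kdr, Vegfb and Pgf bind Flt1, and Vegfc binds Flt4 and, once processed, Kdr. Neuropilins have no kinase domain. They hold VEGF ligands beside the receptors, and they also form the binding part of the receptors for class 3 semaphorins, with plexins as the signalling part. Flt1 is known as the VEGF receptor of monocytes and macrophages, and in mice lacking M-CSF an injection of VEGF can bring back osteoclasts. In the mouse, semaphorin 3A acting through Nrp1 restrains osteoclast formation.

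Total counts ranged from 45512004 to 54256377 per library. Whether replicate libraries stem from different mice or different dishes is not stated, and p-values therefore cover only library-to-library spread, possibly technical. ZM replicate 3 stood apart from the other libraries, with a composition factor of 0.919 against 0.995 to 1.03. The log2 folds of the family genes are given with and without it. For most other genes they are given with all libraries only. Summed over 8 osteoclast markers, the level was 4661 to 4944 CPM (counts scaled to the effective library size) in Ctrl and 473 to 849 CPM in ZM, lowest in ZM replicate 3. Summed over 8 macrophage markers, it was 10165 to 11592 CPM in Ctrl and 18646 to 38776 CPM in ZM, highest in ZM replicate 3. All 8 osteoclast markers fell and 5 of the 8 macrophage markers rose, beside 5.44% fallen and 5.54% risen among all genes tested. Without single Ctrl libraries, 6 osteoclast and 0 macrophage markers were called. Megakaryocyte markers summed to 5.68 to 8.92 CPM in Ctrl and 18.8 to 38.6 CPM in ZM, highest in ZM replicate 3 (2 of 3 tested rose, 0 without single Ctrl libraries). Of the 5 listed, 4 had a mean under 1 CPM over the 6 libraries, all but Pf4. Erythroid markers summed to 3.30 to 3.84 CPM and 0.614 to 1.02 CPM (1 of 3 tested fell). Stromal markers summed to 19.5 to 21.3 CPM in Ctrl and 14.7 to 17.5 CPM in ZM, with 0 called. Neutrophil, B cell, and T or NK cell markers summed to at most 2.73, 1.67 and 8.88 CPM in any library. In bulk RNA, fewer cells of a type and less RNA per cell cannot be told apart.

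The inhibitor comparison asked whether cells given a VEGF receptor inhibitor carried different amounts of VEGF receptor, co-receptor and ligand transcripts. Of the 9 genes, 3 fell with ZM, 0 rose and 6 were not called at an adjusted p of 0.05. The fallen genes were the receptor Kdr and the ligands Vegfc and Pgf, each more than 3-fold lower. Over all 15590 genes tested, 11.0% were called, 5.54% as risen and 5.44% as fallen. The groups did not overlap for 4 members that were lower with ZM (Kdr, Nrp2, Vegfc and Pgf) and 1 that was higher (Vegfa), against 21.4% and 21.5% of all genes tested (42.9% in either direction). The median log2 fold of the members was -0.76, beside 0.0027 for all genes tested. That median is the value of Flt1, a gene of few counts that was not called. The member folds ranged from -1.78 for Pgf to 0.74 for Vegfa.

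The 3 calls were lost with any single Ctrl library left out. Without any 1 of Ctrl replicates 1, 2 and 3, 0 of the 9 members were called, and only 180, 224 and 148 of all genes were. Without ZM replicate 1, the same 3 members fell, and 669 of all genes were called. Without ZM replicate 2 and without ZM replicate 3, 6 members were called, 2 risen and 4 fallen in each case. Calls over all genes also grew there, to 5023 and 3120 from 1711 with all libraries.

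**Figure D1:**
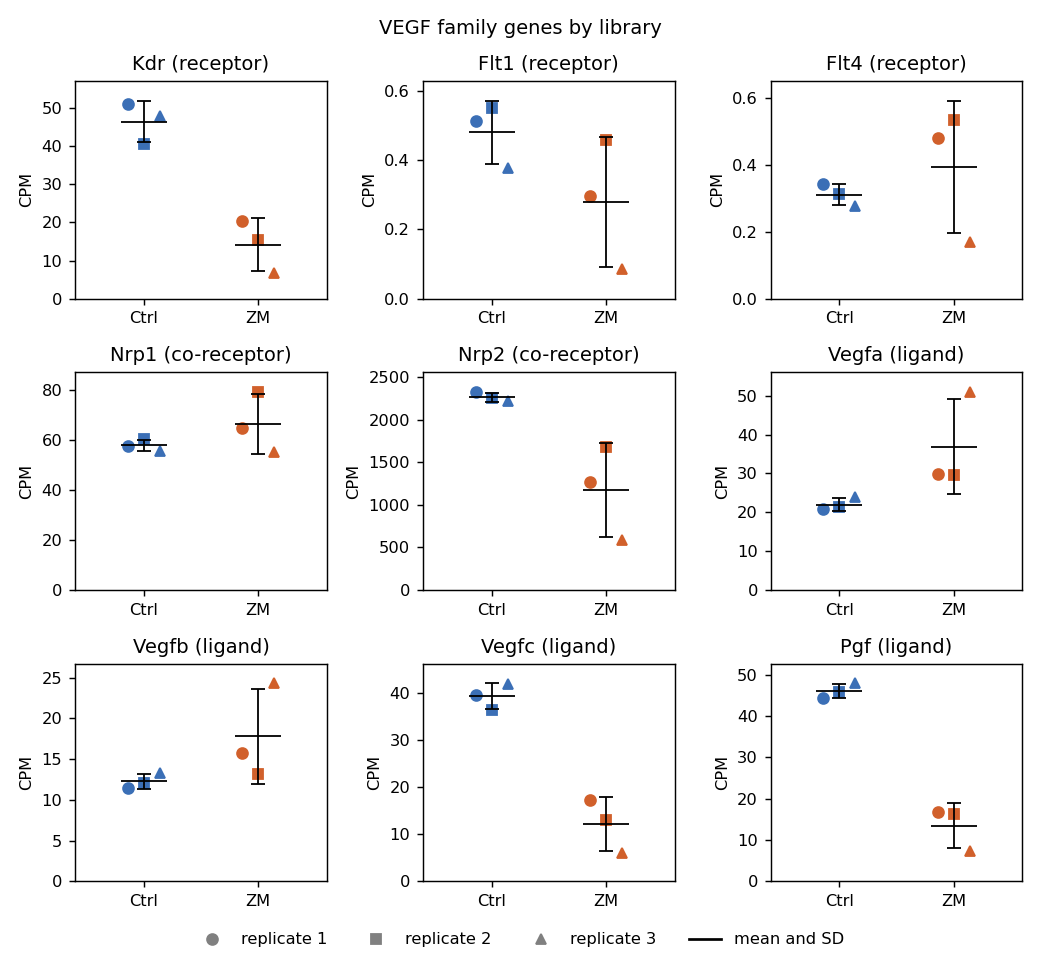
Level of each VEGF family gene in CPM (vertical axes, each from 0) in the 3 Ctrl and 3 ZM libraries, with the mean and SD in black. Kdr, Vegfc, Pgf and Nrp2 lay lower in every ZM library than in any Ctrl library, Vegfa lay higher, and ZM replicate 3 (triangle) was the lowest or highest ZM library in each panel.

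Kdr, the receptor that carries most VEGF signalling in blood endothelium, made up nearly all VEGF receptor mRNA in these cultures. Kdr (ENSMUSG00000062960, a protein-coding gene at chr5:75932827-75978458 of GRCm38, reverse strand) was at 50.9, 40.3 and 47.7 CPM in the Ctrl libraries. It was at 20.3, 15.4 and 6.76 CPM in the ZM libraries. Each ZM library was thus lower than every Ctrl library, and ZM replicate 3 was the lowest. This was a 3.26-fold difference (log2 fold -1.71, SE 0.35) that passed at adjusted p = 0.0274. The log2 fold was -1.37 without ZM replicate 3 (adjusted p = 0.000338). The call was lost without Ctrl replicates 1, 2 and 3 (adjusted p = 0.119, 0.0926 and 0.117), and against a log2 fold of 0.5 (0.0918).

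Kdr is a textbook endothelial gene, so endothelial markers were read beside it. Of 12 such markers, 10 had a mean under 1 CPM over the 6 libraries, among them Cdh5 (vascular endothelial cadherin), Pecam1, Tek and Tie1. Mean Cdh5 was 0.635 ± 0.142 CPM without and 0.315 ± 0.258 CPM with the inhibitor (SD, n = 3 each). Kdr was therefore far above the endothelial junction and angiopoietin receptor genes in every library. The other 2 markers were Vwf at 48.4 ± 2.90 and 31.6 ± 2.95 CPM, and Eng at 29.3 ± 1.24 and 41.6 ± 7.93 CPM, in Ctrl and ZM. Summed over the 12 markers, the level was 75.4 to 83.2 CPM in Ctrl and 70.1 to 82.7 CPM in ZM, so the groups overlapped. Most of that sum was Vwf, with a lower mean in ZM, and Eng, with a higher mean in ZM. The part of endothelial cells in the Kdr values was not tested. Vwf, which encodes von Willebrand factor, fell (log2 fold -0.62, adjusted p = 0.0166), whereas Eng was not called (adjusted p = 0.0660). The Vwf call was lost without each Ctrl library, without ZM replicate 1 and with glmTreat against a log2 fold of 0.5.

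Flt1, which encodes VEGF receptor 1, was close to the limit of detection. The libraries held 24, 28 and 19 counts of Flt1 in the Ctrl libraries, and 16, 24 and 4 counts in the ZM libraries. The groups overlapped, and the lowest value was again that of ZM replicate 3. The log2 fold was -0.76 with a 95% interval of -2.06 to 0.53 (adjusted p = 0.365), so a fall of the size seen for Kdr lies within it. Without ZM replicate 3, the Flt1 log2 fold was -0.35 (adjusted p = 0.620). Flt1 (ENSMUSG00000029648) lies at chr5:147561604-147726011 on the reverse strand, on the same chromosome as Kdr. The counts per gene do not separate the membrane receptor from the soluble form that is made from the same gene.

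Flt4, which encodes VEGF receptor 3, the receptor of lymphatic endothelium, was equally sparse. It had 16, 16 and 14 counts in the Ctrl libraries, and 26, 28 and 8 in the ZM libraries. ZM replicates 1 and 2 were above the Ctrl libraries and ZM replicate 3 was below them. The log2 fold was 0.35 with a 95% interval of -0.78 to 1.48 (adjusted p = 0.634), and 0.70 without ZM replicate 3 (adjusted p = 0.258). Of the lymphatic markers Prox1, Lyve1 and Pdpn, the first 2 had a mean under 1 CPM. Pdpn, which osteoblast-lineage and other cells also express, fell from 25.4 ± 1.38 to 15.5 ± 0.884 CPM (adjusted p = 0.00921), a call lost without each Ctrl library and with glmTreat. Summed over these markers, the level was 24.8 to 27.4 CPM in Ctrl and 15.3 to 17.2 CPM in ZM, and its part in the receptor values was not tested.

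On a per-length scale, Kdr held between 98.3% and 98.8% of the summed FPKM (counts per kilobase of gene length and scaled to library total, as the authors deposited them) of the receptors in Ctrl. In ZM it held 94.5% to 96.5%. The summed receptor level was 5.87, 4.67 and 5.43 FPKM in the Ctrl libraries, against 2.32, 1.84 and 0.713 FPKM in the ZM libraries. The receptor pool was thus smaller in every ZM library, and Kdr remained its main part.

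Nrp2 was by far the most abundant VEGF family transcript, with a mean of 196 ± 5.44 FPKM in Ctrl, rank 220 of 26106 genes. Nrp2 (ENSMUSG00000025969, chr1:62703285-62818695, forward strand) encodes a co-receptor for Vegfc and Vegfa and for semaphorins of class 3. It was at 2328, 2254 and 2222 CPM in the Ctrl libraries, and at 1266, 1677 and 586 CPM in the ZM libraries. Each ZM library was below every Ctrl library, but the ZM libraries spread widely, with replicate 2 the highest. The log2 fold was -0.95 (95% interval -1.71 to -0.18, SE 0.33) and was not called at adjusted p = 0.100. With the wide ZM replicate 3 left out the log2 fold was smaller, at -0.62, and passed (adjusted p = 0.00430). It also passed without ZM replicate 2 (log2 fold -1.29, adjusted p = 0.0214), with DESeq2 (0.0190) and without a filter (0.0475).

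Nrp1, the other neuropilin, did not share that pattern. Nrp1 (ENSMUSG00000025810, chr8:128358604-128503363, forward strand) was at 57.8, 60.2 and 55.7 CPM in the Ctrl libraries, and at 64.9, 79.1 and 55.1 CPM in the ZM libraries. The groups overlapped, and the log2 fold was 0.20 (95% interval -0.12 to 0.52, adjusted p = 0.342). Without ZM replicate 3 it was 0.32 (adjusted p = 0.0425), and without ZM replicate 2 it was 0.05. The ratio of Nrp2 to Nrp1 in FPKM was 33.3, 31.0 and 33.0 in the Ctrl libraries. In the ZM libraries it was 16.1, 17.5 and 8.78, so the balance of the neuropilins was lower in every ZM library, with Nrp2 still in excess.

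**Figure D2:**
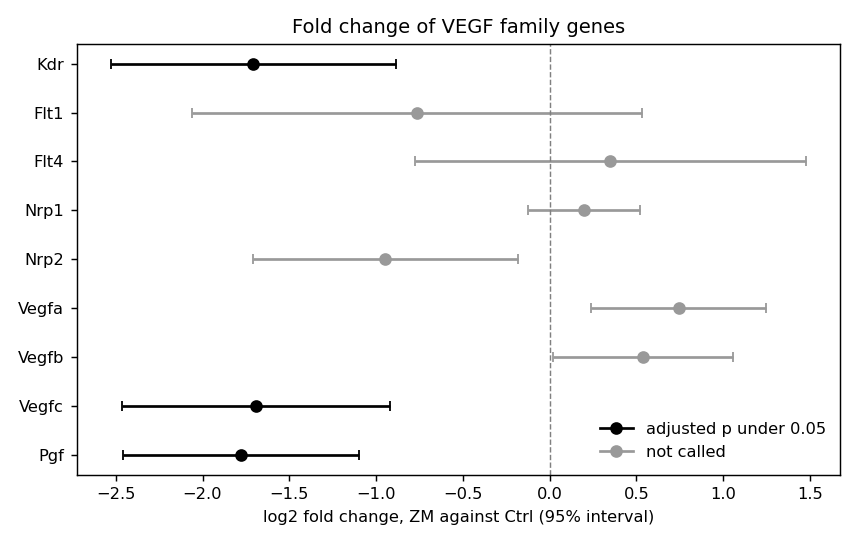
Log2 fold change of each VEGF family gene, ZM against Ctrl (horizontal axis), with its 95% interval from the edgeR fit. The intervals of Kdr, Vegfc and Pgf (black, adjusted p under 0.05) ended at -0.89, -0.92 and -1.10, whereas those of Flt1, Flt4 and Nrp1 spanned 0.

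Among the ligands, Vegfc and Pgf were lower with ZM while Vegfa and Vegfb were not. Vegfc (ENSMUSG00000031520, chr8:54077606-54187096, forward strand), the growth factor of lymphatic vessels, was at 39.5, 36.5 and 42.0 CPM in the Ctrl libraries. It was at 17.3, 13.1 and 6.06 CPM in the ZM libraries. All ZM libraries lay below the Ctrl libraries, with replicate 3 the lowest, as for Kdr. Vegfc was 3.23-fold lower (log2 fold -1.69, SE 0.33, adjusted p = 0.0238). The log2 fold was -1.37 without ZM replicate 3 (adjusted p = 0.000208), and the adjusted p rose to between 0.0906 and 0.108 without single Ctrl libraries.

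Pgf (ENSMUSG00000004791, chr12:85166635-85177790, reverse strand) encodes placental growth factor, a ligand of Flt1. It was at 44.4, 45.8 and 47.9 CPM in the Ctrl libraries, and at 16.8, 16.2 and 7.22 CPM in the ZM libraries. Here too the groups were apart and ZM replicate 3 was the lowest. Pgf was 3.42-fold lower (log2 fold -1.78, SE 0.29, adjusted p = 0.0137), and its log2 fold was -1.48 without ZM replicate 3 (adjusted p = 1.24e-05). Of the 3 fallen members, Pgf alone also passed against a log2 fold of 0.5 (adjusted p = 0.0424). Without single Ctrl libraries its adjusted p was 0.0659 to 0.0747.

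Vegfa (ENSMUSG00000023951, chr17:46016993-46032369, reverse strand), the main growth factor of blood vessels, had values on the other side of Ctrl. It was at 20.9, 21.2 and 23.8 CPM in the Ctrl libraries, and at 29.9, 29.6 and 50.9 CPM in the ZM libraries. Every ZM library was above every Ctrl library, and ZM replicate 3 was the highest. The log2 fold was 0.74 (95% interval 0.24 to 1.25) and did not pass at adjusted p = 0.0682. The difference was smaller but called without ZM replicate 3 (log2 fold 0.44, adjusted p = 0.00937). It was also called without ZM replicate 2 (log2 fold 0.88, 0.0246), with DESeq2 (0.0149) and without a filter (0.0304). Counts per gene do not separate the isoforms of Vegfa.

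Vegfb (ENSMUSG00000024962, chr19:6982473-6987651, reverse strand), a ligand of Flt1 with a role in fatty acid uptake by endothelium in the mouse, was at 11.4, 12.0 and 13.3 CPM in the Ctrl libraries. It was at 15.8, 13.2 and 24.3 CPM in the ZM libraries. ZM replicate 2 lay within the Ctrl range and ZM replicate 3 far above it. The log2 fold of 0.54 was not called (95% interval 0.02 to 1.05, adjusted p = 0.146). It was 0.71 without ZM replicate 2 (adjusted p = 0.0324) and 0.25 without ZM replicate 3 (0.184).

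The mix of ligand transcripts therefore differed between the groups. By deposited FPKM, Vegfc and Pgf together made up 72.4%, 71.2% and 70.8% of the ligand sum in the Ctrl libraries. In the ZM libraries they made up 43.3%, 41.9% and 15.5%, and Vegfa and Vegfb held the rest. The ligand sum itself was 44.3 to 48.3 FPKM in Ctrl and 26.6 to 29.5 FPKM in ZM, so the groups did not overlap in either quantity. Both quantities are built from the member values above and are no separate result. Of all genes tested, 42.9% did not overlap between the groups. Vegfd, another ligand of Flt4, had 0, 2 and 6 counts in the Ctrl libraries and 2, 6 and 16 in the ZM libraries, under the filter.

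**Figure D3:**
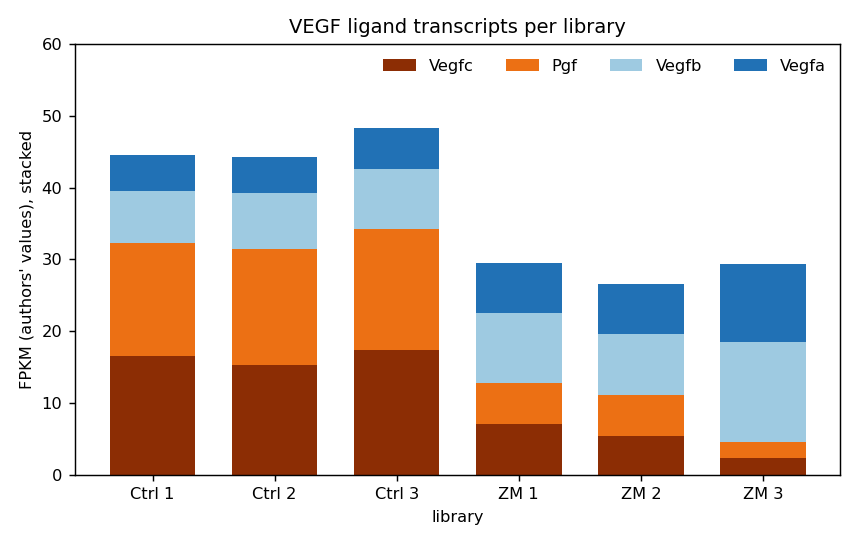
FPKM of the 4 VEGF ligands as the authors deposited them (vertical axis), stacked for each of the 6 libraries. Vegfc and Pgf (brown and orange) made up 70.8% to 72.4% of the stack in Ctrl and 15.5% to 43.3% in ZM.

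Ordered by mean FPKM in Ctrl, Nrp2 was followed by Vegfc at 16.4 ± 1.07 and Pgf at 16.2 ± 0.543, which did not differ beyond their spread. Vegfb at 7.81 ± 0.583 came next, then Nrp1 at 6.05 ± 0.262. Vegfa at 5.25 ± 0.352 and Kdr at 5.25 ± 0.609 were indistinguishable. Flt4 at 0.0388 ± 0.00417 and Flt1 at 0.0364 ± 0.00704 closed the order, also within each other's spread. In ZM, Nrp2 still led at 98.7 ± 49.9 FPKM, but Vegfb (10.7 ± 2.87), Vegfa (8.30 ± 2.27) and Nrp1 (6.68 ± 1.54) now stood above Vegfc (4.92 ± 2.42) and Pgf (4.59 ± 1.99). Kdr followed at 1.56 ± 0.792 FPKM. Neighbours in the ZM order from Vegfb to Pgf overlapped within their SD.

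Relative to the Ctrl mean, the log2 CPM of Kdr, Vegfc and Pgf was lower by similar amounts within each ZM library. In ZM replicate 1 the differences were -1.19, -1.19 and -1.45 for Kdr, Vegfc and Pgf, in ZM replicate 2 they were -1.59, -1.59 and -1.50, and in ZM replicate 3 -2.78, -2.70 and -2.67. Nrp2 had another order, at -0.84, -0.44 and -1.95 in the ZM libraries. Vegfa was at 0.44, 0.43 and 1.21. The osteoclast markers were lowest and the macrophage markers highest in ZM replicate 3 as well. The megakaryocyte sum, in which only Pf4 averaged 1 CPM or more, was also highest there. The part of all these markers in these values was not tested.

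The genes most like the fallen members were picked by Pearson's r of log2 CPM over the 6 libraries, among 8804 other genes averaging 10 CPM or more. The libraries fall into 2 groups, so these values describe likeness only. Kdr was closest to Ogdh, Cycs and Gnl2 (r = 0.999, 0.998 and 0.998). Vegfc was closest to Ncl, Abcb4 and Lap3 (r = 0.999, 0.998 and 0.998), and Pgf to Rdh13, Sec31a and Sdc1 (r = 0.9998, 0.999 and 0.999). These genes had smaller log2 folds than the members they resembled, from -0.23 for Sec31a to -1.01 for Abcb4. Of the 9, Cycs, Abcb4, Lap3, Rdh13 and Sdc1 fell and the other 4 were not called. Without single Ctrl libraries none of these 5 calls held, with adjusted p from 0.0882 for Abcb4 to 0.180 for Lap3. Lap3 also lost it without ZM replicate 1 (0.0531).

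Sequence over the 250 bases before the start site was read for all 9 members from the RefSeq start-site windows of GRCm38.p6. Kdr and Vegfc are printed because they fell in parallel, and Vegfa because its values lay higher in ZM. Motifs and GC content were read over the whole 250 bases in every member, whereas bases inside annotated exons, 3 of them in Kdr, are not printed. The windows of Flt4 and Pgf lay wholly inside annotated exons, as did 32 bases of the Nrp2 window. Pgf, which also fell, therefore had no bases to print. The motif counts over members below include these exonic bases. The lines give 5′ to 3′ in gene direction, with the GC box GGGCGG or its complement on the other strand in capitals. Kdr spans chr5:75978459-75978705, reverse strand, Vegfc chr8:54077282-54077531, forward strand, and Vegfa chr17:46032378-46032627, reverse strand.
Kdr: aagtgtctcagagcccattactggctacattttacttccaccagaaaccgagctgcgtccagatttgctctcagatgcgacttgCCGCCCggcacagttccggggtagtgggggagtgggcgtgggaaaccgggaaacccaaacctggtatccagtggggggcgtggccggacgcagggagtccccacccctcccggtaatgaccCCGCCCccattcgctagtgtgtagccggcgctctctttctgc
Vegfc: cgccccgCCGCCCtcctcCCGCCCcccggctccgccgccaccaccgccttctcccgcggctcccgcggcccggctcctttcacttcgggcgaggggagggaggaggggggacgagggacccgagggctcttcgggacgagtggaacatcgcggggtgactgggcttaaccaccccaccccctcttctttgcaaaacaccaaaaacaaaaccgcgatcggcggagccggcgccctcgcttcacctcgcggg
Vegfa: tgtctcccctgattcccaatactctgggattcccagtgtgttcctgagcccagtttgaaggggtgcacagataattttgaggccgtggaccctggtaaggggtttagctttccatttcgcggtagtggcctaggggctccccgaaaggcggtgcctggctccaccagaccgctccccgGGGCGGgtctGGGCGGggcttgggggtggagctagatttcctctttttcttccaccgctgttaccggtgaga
The printed stretches hold 2 GC boxes each, so this motif, the core bound by Sp1, was shared by members with lower and with higher levels in ZM. It was found in the windows of 9 of the 9 members (1 to 5 matches each, either strand) and in 32.7% of 32851 windows in the table. The windows of the members were rich in G and C, at 59.2% for Vegfa, 61.6% for Kdr and 71.6% for Vegfc, against a median of 52.4%. GGAAA, the core bound by NFAT factors, was present in 5 members, with 2 matches each in Kdr and Vegfa and 0 in Vegfc, and in 55.6% of all windows. The hypoxia core ACGTG and the AP-1 site TGAGTCA were found in 0 of the 9, against 16.6% and 4.46% of all windows. TATAAA was found in Flt1 alone, against 12.4%. These are matches of letters in a short window and say nothing of binding.

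The genes around the family were read in 7 lists with 109 entries. Genes for Vegfa transcription and oxygen sensing, with Sp1 among them, were not called. Of 9 tested, 0 rose and 0 fell, with a median log2 fold of 0.11. Among all genes tested 11.0% were called, so a count of 0 in so short a list is near that share. In this list 3 genes lay higher in every ZM library than in any Ctrl library, beside 21.5% of all genes tested. Egln1, a prolyl hydroxylase that marks HIF for decay, had the smallest adjusted p at 0.0761, with 41.9 ± 1.05 CPM in Ctrl and 51.4 ± 3.03 CPM in ZM. By DESeq2 1 gene of the list, Egln1, was called (adjusted p = 0.0310), 2 rose without ZM replicate 3, and 2 rose and 1 fell without ZM replicate 2. Calls over all genes also grew in these settings, to 3295, 3120 and 5023 from 1711.

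Of 11 tested partners of neuropilins, 5 fell, 0 rose and 6 were not called (median log2 fold -0.82), beside 5.44% fallen among all genes tested. The semaphorins Sema3c and Sema3e and the plexins Plxna1 and Plxna3 were among those not called (adjusted p = 0.260, 0.0926, 0.245 and 0.560). Sema3d, a secreted class 3 semaphorin, fell from 9.32 ± 0.903 to 0.588 ± 0.399 CPM (log2 fold -3.96, adjusted p = 0.00610), and the call held without any single library. Plxnd1, a plexin, fell from 864 ± 34.3 to 568 ± 45.9 CPM (log2 fold -0.60, adjusted p = 0.0127). Plxna2, another plexin, fell from 81.2 ± 1.53 to 39.6 ± 11.2 CPM (adjusted p = 0.0198). Sema3a, the semaphorin that signals through Nrp1, fell from 1.58 ± 0.0282 to 0.268 ± 0.187 CPM (adjusted p = 0.0222), and Plxna4 was the fifth. Without single Ctrl libraries only Sema3d was still called in this list, and 2 genes were without ZM replicate 1. Without ZM replicate 3 the count was again 5.

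Of 15 tested genes for ligand release, processing and trapping, 4 fell and 0 rose (median log2 fold -0.21). Among all genes tested, 5.44% fell and 5.54% rose. Mmp9, a metalloproteinase that frees VEGF from matrix and is also an osteoclast marker, fell from 2078 ± 38.1 to 262 ± 127 CPM (adjusted p = 0.00654) and kept the call without any single library. Adamts1, a protease that binds VEGF, fell from 1.66 ± 0.127 to 0.376 ± 0.171 CPM (adjusted p = 0.0134). Hspg2, the matrix proteoglycan perlecan, fell from 2.00 ± 0.518 to 0.519 ± 0.147 CPM (adjusted p = 0.0137). Sdc1, the heparan sulphate proteoglycan syndecan-1, fell from 399 ± 13.7 to 242 ± 44.1 CPM (adjusted p = 0.0239). Adamts1 and Sdc1 lost the call without each Ctrl library (0.0659 to 0.120), and Hspg2 without Ctrl replicates 1 and 3 and ZM replicate 1 (0.0532 to 0.0764).

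Signalling proteins downstream of the receptors changed in both directions: of 38 tested, 7 rose and 4 fell (median log2 fold 0.15). The shares among all genes tested were 5.54% risen and 5.44% fallen. Src, the tyrosine kinase that osteoclasts need for bone resorption, fell from 223 ± 10.6 to 92.8 ± 21.7 CPM (log2 fold -1.26, adjusted p = 0.00862). Sphk1, a sphingosine kinase, fell from 2.82 ± 0.426 to 0.846 ± 0.298 CPM (adjusted p = 0.0172), and Pxn, the adhesion adaptor paxillin, from 318 ± 3.74 to 234 ± 4.91 CPM (adjusted p = 0.0183). The fourth was Prkca. Among the risen genes were the kinases Mapkapk2, with a log2 fold of 0.54 (adjusted p = 0.0243), and Mapk3, with a log2 fold of 0.93 (adjusted p = 0.0440). Mapk3 was at 223, 177 and 349 CPM in the ZM libraries, highest in replicate 3. Without single Ctrl libraries 0 or 1 of the 38 was called, and 2 were without ZM replicate 1. Without ZM replicates 2 and 3, 12 and 11 rose and 6 and 5 fell.

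Of 5 tested phosphatases that act on VEGF receptors, 1 rose, beside 5.54% of all genes tested, and so short a list says little against that share. Ptpn6, which encodes SHP-1, rose from 350 ± 2.94 to 480 ± 39.7 CPM (log2 fold 0.46, adjusted p = 0.0273). That call was lost without each Ctrl library and ZM replicate 1 (0.0838 to 0.150). Among 7 tested genes of the related PDGF family and receptors, 2 fell and 0 rose, beside 5.44% and 5.54% of all genes tested. Pdgfa, a platelet-derived growth factor chain, fell from 63.9 ± 3.14 to 36.4 ± 5.72 CPM (adjusted p = 0.0131) and Kit, the stem cell factor receptor, from 2.80 ± 0.632 to 0.752 ± 0.405 CPM (adjusted p = 0.0366). Neither call held without any 1 Ctrl library (0.0711 to 0.149), and Kit also lost it without ZM replicate 1 (0.0889). Csf1r, the M-CSF receptor and a relative of the VEGF receptors, was not called (adjusted p = 0.0920).

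Genes that VEGF induces in endothelial cells did not move as a block: of 13 tested, 3 rose and 1 fell (median log2 fold 0.36). Among all genes tested, 5.54% rose and 5.44% fell. Ptgs2, the inducible cyclooxygenase, fell from 5.11 ± 0.319 to 1.27 ± 0.238 CPM (log2 fold -2.01, adjusted p = 0.00284) and kept the call without any single library. Egr3, an immediate early transcription factor, rose from 0.788 ± 0.325 to 3.65 ± 0.603 CPM (adjusted p = 0.0105), a call lost without Ctrl replicate 3 (0.0666). Hlx, a homeobox factor, rose from 10.6 ± 0.375 to 35.6 ± 22.3 CPM (log2 fold 1.75, adjusted p = 0.0348), and its log2 fold was 1.12 when ZM replicate 3 was left out. The Hlx call was lost without each Ctrl library and ZM replicate 1 (0.0701 to 0.148), with limma-voom (0.0553) and with glmTreat (0.118). Icam1 was the third risen gene, at 113 ± 0.188 and 144 ± 8.64 CPM (adjusted p = 0.0416), and its call was lost without each Ctrl library and without ZM replicate 1. Rcan1, a calcineurin inhibitor that is a classic VEGF target in endothelium, was not called (log2 fold -0.32, adjusted p = 0.0936).

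**Figure D4:**
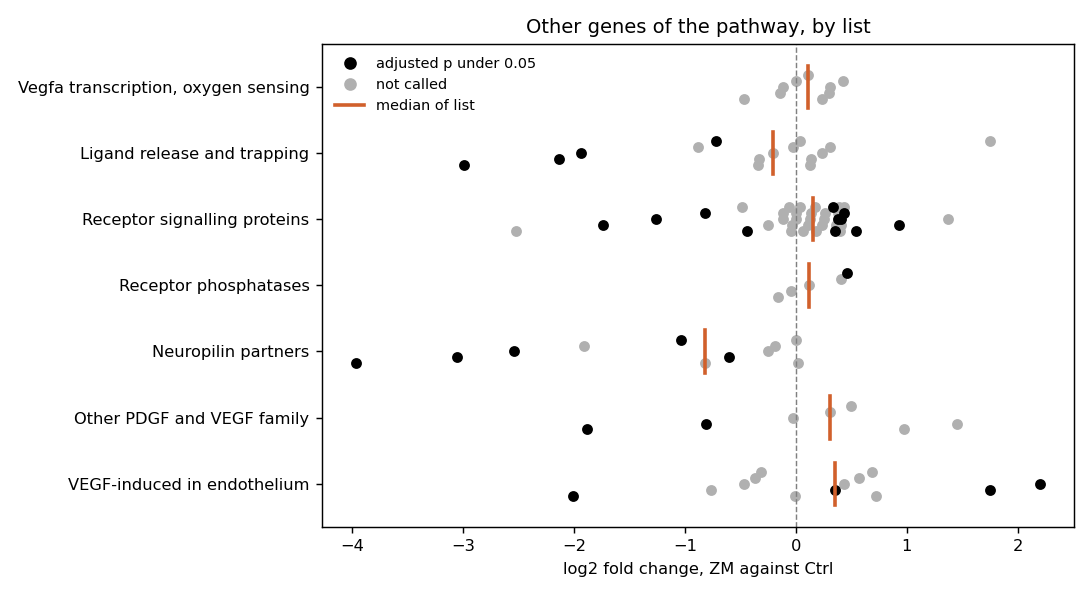
Log2 fold change, ZM against Ctrl (horizontal axis), of each tested gene in the 7 lists of other pathway genes, called genes in black, others in grey, with the list median as an orange line. The neuropilin partners had the lowest median, -0.82, with 5 of 11 genes fallen, while none of the 9 genes for Vegfa transcription and oxygen sensing was called. Of all genes tested, 11.0% were called, 5.44% as fallen. Without single Ctrl libraries, only Sema3d of these neuropilin partners was still called.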

How the data were processed

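Per the submitters' processing notes, reads were handled with HISAT2 2.2.1, featureCounts 2.0.3 and DESeq2 on mm10. The strand setting and the annotation are not given in the sources used here. The authors deposited raw read counts and FPKM per gene. The FPKM were used for levels between genes, and the counts for tests. Of counts from 1 to 20, 72.7% to 76.4% were even, so both mates of a pair may have been counted. Genes passing the low-count filter of edgeR 4.0.16 (15590 of 26106, R 4.3.3) were scaled by TMM and tested with its quasi-likelihood F test, ZM against Ctrl, with Benjamini-Hochberg adjustment over all of them at 0.05. A printed adjusted p is from that test unless another setting or tool is named beside it (DESeq2 1.42.0, limma 3.58.1, edgeR's glmTreat, the replicate block, no filter, or a library left out). Per the labels, all libraries carry the same batch. From each list, the called genes with the 3 smallest adjusted p were named (where none was called, the smallest), and for each called member the 3 genes most like it. Alternatives covered scaling, filtering, DESeq2, limma-voom, glmTreat, counts divided by 2, the replicate block and leaving out each library. Vwf, Eng, Cdh5, Csf1r, Rcan1, Vegfd, Pdpn, Sdc1 in its list, Sema3a, Sema3c, Sema3e, Plxna1, Plxna3, Plxna4, Prkca, Icam1, Mapkapk2 and Mapk3 were named after their values were seen. The members and lists were chosen with earlier results of these data known.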

Additional observations from a re-analysis of the deposited data

How the results depend on the processing

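Genes called numbered 1711, against 3295 with DESeq2, 302 with glmTreat against a log2 fold of 0.5, and 148 to 5023 with single libraries left out. Members called numbered 3, against 5 without a filter, 5 with DESeq2, 5 with the replicate block, 1 with glmTreat, and 0 to 6 with single libraries left out. With glmTreat, Kdr (-1.71, adjusted p = 0.0918) and Vegfc (-1.69, 0.0795) were no longer called. Nrp2 became called at -0.94 without a filter, -0.95 with DESeq2 and -1.07 with the replicate block (adjusted p = 0.0406), and Vegfa at 0.74, 0.74 and 0.70 (0.0346). The log2 fold without single libraries ranged from -2.06 to -1.37 for Kdr, -2.04 to -1.37 for Vegfc, -1.97 to -1.48 for Pgf, -1.29 to -0.62 for Nrp2, 0.44 to 0.88 for Vegfa, 0.054 to 0.32 for Nrp1, 0.25 to 0.71 for Vegfb, -1.30 to -0.35 for Flt1 and 0.08 to 0.70 for Flt4. The cause of these shifts was not tested. Same-numbered libraries deviated together with r of 0.03, 0.05 and 0.11, not all over 0.1, and not every library correlated best with its own number, so the numbers were not taken as pairs. With the replicate block 1679 genes were called. No direction reversed. Flt1 and Flt4 gave no value with at least 1 CPM in every library, nor Flt4 with counts divided by 2. Their low counts limit what could be detected.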
